A study of Homo sapiens and Mus musculus with 30 samples.

Results

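The genes described here are 55 cell-surface receptors and adhesion molecules, taken by symbol from the human tables and by the matching mouse symbol from the mouse table. The human table of polysome and total RNA (11342 genes) lists 53 of them. ITGA3 and ITGB4 are not listed there. Every gene of that table has at least 1 RPKM in each of the 5 total RNA libraries (RPKM, reads per 1e6 reads of the library and per kilobase of gene). Of the 53, 52 passed the filter of a mean of at least 1 RPKM over the 10 libraries and were tested; GPC6 did not pass. The mouse table (41128 genes) lists all 55, of which 42 were tested.

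Human HEK293A cells, an embryonic kidney line, and mouse NIH3T3 fibroblasts were grown at 5 levels of LIN28B. This protein binds RNA, stops let-7 microRNAs from maturing and attaches to a wide set of mRNAs. X0 carries no LIN28B by design (a knockout, per the series' design text), and X1, X2, X3 and X4 carry a LIN28B transgene in rising amounts, induced with doxycycline at 10 ng/ml. Each level and line had 1 library of total RNA and 1 of polysome RNA, the RNA bound by ribosomes. Mature let-7a, transfected at 10 nM into X0 cells of HEK293A, gave 1 more library of each fraction. All cells grew in medium with 10% serum. The sources used here do not say whether X0 also received doxycycline, which species the transgene in NIH3T3 comes from, or whether a level is 1 clone or a pool. The design text names 2 replicates, while 1 column per level and fraction was analysed, so p-values measure the scatter of 5 single libraries around a straight line.

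The members are the proteins through which a cell holds on to its neighbours and its matrix and reads signals from outside. All are made on ribosomes at the endoplasmic reticulum and carried to the plasma membrane, and many are cut there by sheddases and gamma-secretase. They include integrins, which bind matrix proteins, heparan sulfate proteoglycans, which hold growth factors at the surface, receptor tyrosine kinases and phosphatases, and the receptors of the Notch, Wnt, semaphorin and ephrin pathways.

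LIN28B total RNA in HEK293A was 3.6, 23, 33.4, 81.2 and 208 RPKM from X0 to X4, so the libraries follow their labels, with some LIN28B RNA left at X0. In NIH3T3 mouse Lin28b had 1, 1, 1, 9 and 42 reads in total RNA and 1, 3, 4, 13 and 42 reads in polysomes from X0 to X4, at most 0.354 RPKM in total RNA. These few reads follow the order of the labels at the upper levels and do not separate X0, X1 and X2 in total RNA. All 9 fibroblast markers were found in NIH3T3 (7613 to 8639 RPKM summed per total RNA library), with 5 epithelial markers at 0.289 to 0.959 RPKM summed. In HEK293A, 5 of 8 kidney and neuronal markers were listed. Most of their sum was VIM (104 to 171 RPKM in HEK293A, 1221 to 2994 RPKM in NIH3T3), which is a fibroblast marker too. Without VIM the list summed to 29.8 to 38.4 RPKM in HEK293A and 3.73 to 5.6 RPKM in NIH3T3. Also listed in HEK293A were 3 of 5 epithelial markers, all keratins. None of the 4 blood and 4 endothelial markers was listed there. Reads recovered from the RPKM steps came to 37.7 to 56.1 M (M, 1e6) per HEK293A total RNA library and 9.1 to 14.6 M per polysome library, against 16.1 to 25 M and 15.9 to 20.8 M in NIH3T3. Members had a median of 386 reads per HEK293A polysome library, ranging from 32 (EPHB2) to 17053 (BSG), and 8 of 52 had a library under 100 reads.

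The promoters of LRP1 and NOTCH3 are shown because these were the members whose fall in ribosome occupancy, described below, came with a large rise in total RNA. The 250 bases before each start site are given 5′ to 3′ on the gene's strand, with GC boxes (GGGCGG, or CCGCCC on the other strand) in capitals. Positions are on GRCh38.p14 and the sequences are RefSeq's, while the submitters' processing notes name hg19 for the reads.
LRP1, chr12:57128233-57128482, plus strand: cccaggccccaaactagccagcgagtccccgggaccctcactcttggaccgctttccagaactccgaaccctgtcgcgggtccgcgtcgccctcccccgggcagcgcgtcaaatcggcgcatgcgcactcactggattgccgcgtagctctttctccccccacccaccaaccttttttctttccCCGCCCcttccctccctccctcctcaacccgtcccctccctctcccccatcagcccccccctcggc
NOTCH3, chr19:15200996-15201245, minus strand: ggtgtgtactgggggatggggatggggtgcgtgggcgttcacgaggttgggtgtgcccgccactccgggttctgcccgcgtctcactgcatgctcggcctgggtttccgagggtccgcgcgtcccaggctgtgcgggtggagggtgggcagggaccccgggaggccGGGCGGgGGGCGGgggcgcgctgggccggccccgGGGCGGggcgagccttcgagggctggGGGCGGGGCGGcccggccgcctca
The LRP1 window holds 1 GC box and the NOTCH3 window 5, of which the last pair overlaps. A GC box was present in 39 of the 43 members with a promoter in the RefSeq table (90.7%), against 77.1% of all tested genes with one and 42.6% of the table's 35116 promoters of the same length. Among members it was found in 89.3% of the 28 whose occupancy fell and in 92.3% of the 13 with no call. A match describes these letters only.

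In HEK293A, ribosome occupancy of most receptor and adhesion genes fell as LIN28B rose. Occupancy is the log2 of polysome RPKM minus the log2 of total RPKM, each after adding 0.5, and its slope is the change in log2 per level. RPKM is a share of each library, so a change in the total amount of polysome RNA per cell is not seen. Of 52 members, 34 fell and 2, ITGB1 and TFRC, rose at an adjusted p under 0.05 (limma, Benjamini-Hochberg over 11125 genes), and 16 were not called. That is 65.4% of members fallen, against 38.9% of all genes tested, and 3.85% risen, against 19.1%. The members, and the lists of related genes below, were chosen with earlier results of these data known. Shares of members or lists set against all genes, here and below, are therefore descriptions and not a test. The median slope was -0.24 per level over members and -0.07 over all genes. With each library centred on its own genes the counts were 29 fallen and 4 risen (27.7% and 28.3% of all genes), with ALCAM and MET the added rises and APP, CD63, EFNB1, NOTCH2 and PLXNA2 the falls no longer called. A count test on recovered reads (edgeR quasi-likelihood) gave 30 fallen and 6 risen (28.7% and 29.5%), adding LRP6 and ITGAV to those rises and dropping the falls of APP, CD63, EFNB1 and NOTCH2. In simulated data limma made more false calls than the threshold aims at, so calls close to it are the less firm ones.

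**Figure D1:**
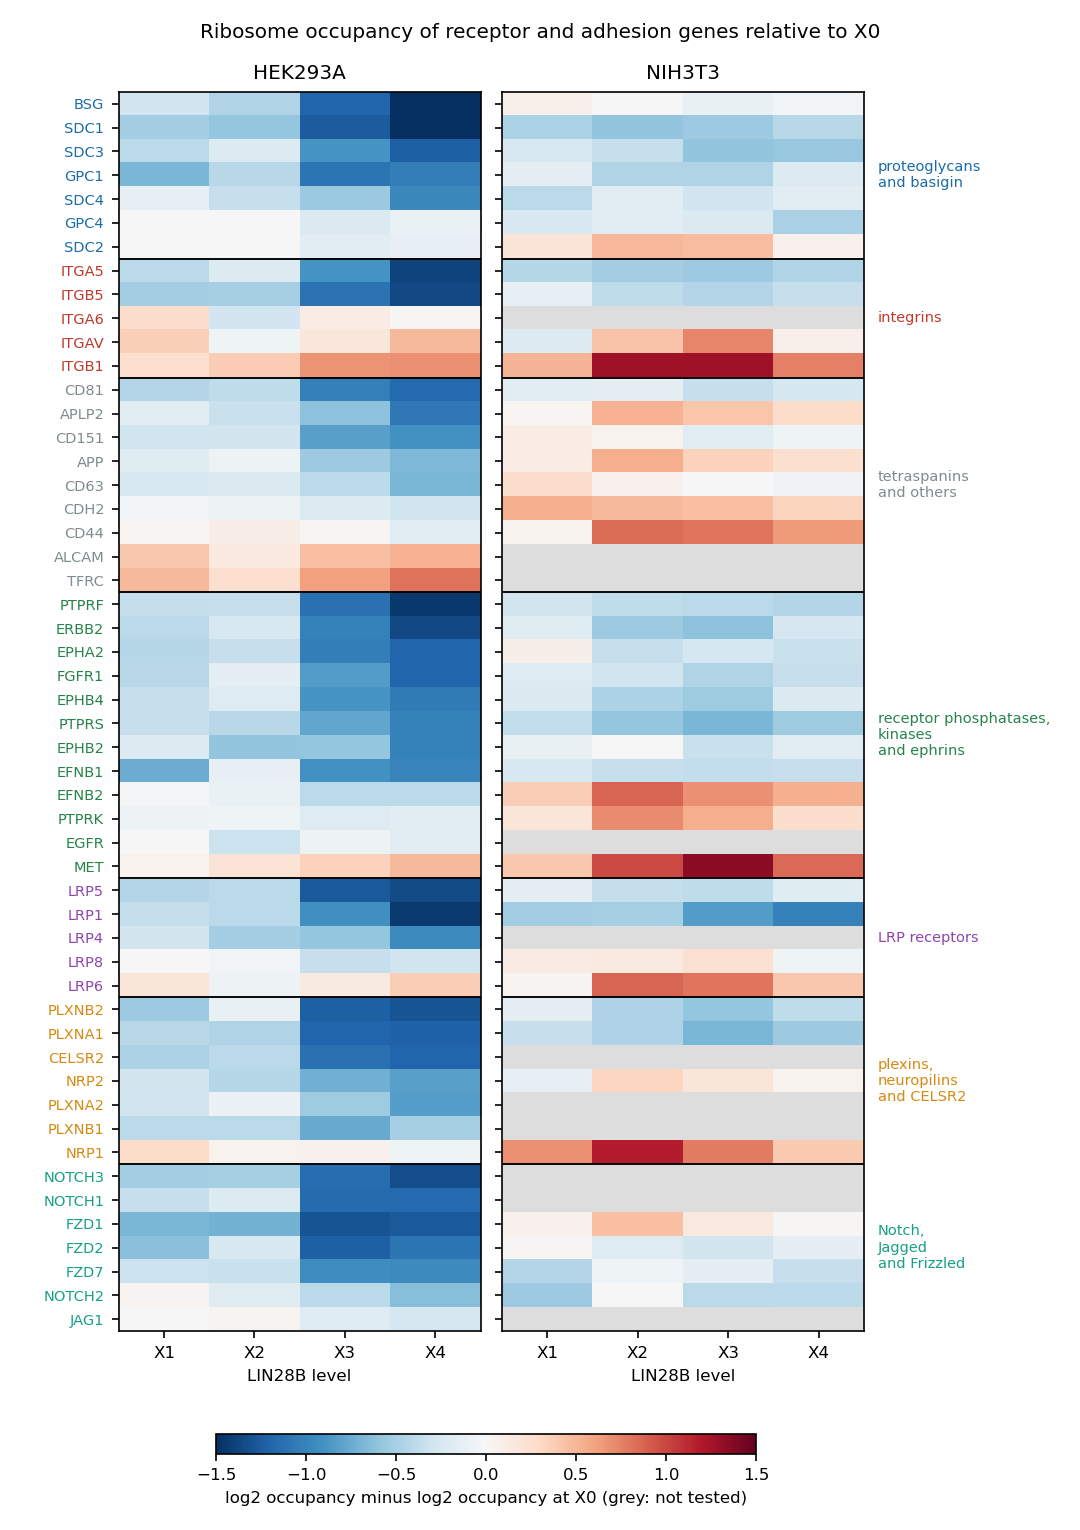
Change in log2 ribosome occupancy from X0 at each LIN28B level (columns) for 52 members (rows, grouped by role), in HEK293A on the left and NIH3T3 on the right; blue is lower and red higher than X0, with the scale ending at 1.5 in either direction, and grey was not tested. In HEK293A most rows turn a darker blue at X3 and X4, and ITGB1, TFRC, ALCAM and MET are among the rows that turn red.

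The fall was not even along the series. Relative to X0, the members' median log2 occupancy at the 4 higher levels, X1 first, was -0.29, -0.22, -0.74 and -0.96, against -0.07, -0.14, -0.16 and -0.32 over all genes. In 41 of 52 members (78.8%) both X3 and X4 were below all of X0, X1 and X2, an order found in 42.7% of all genes. In 4 members (7.69%; 26.2% of all genes), ALCAM, ITGB1, MET and TFRC, both were above. At X0 the plain ratio of polysome to total RPKM had a median of 0.731 over members, from 0.311 (LRP1) to 1.71 (CD151), and was above 1 in 12. At X4 the median was 0.379, from 0.0897 (LRP1) to 1.83 (ITGB1), and 4 were above 1. The median of all genes was 0.818 at X0 and 0.623 at X4.

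Among proteoglycans and basigin, 5 of 7 tested members fell in occupancy and none rose. Basigin (BSG, CD147), a glycoprotein that escorts lactate transporters to the membrane, had 366, 281, 257, 167 and 119 RPKM of polysome RNA from X0 to X4, and 267, 251, 257, 280 and 247 RPKM of total RNA. Its polysome RNA was lower at each step while total RNA showed no order, and the occupancy slope was -0.39 ± 0.06 (SE; limma adjusted p = 0.00271). Syndecan 1 (SDC1), a transmembrane heparan sulfate proteoglycan, had 8.41, 6.85, 7.17, 4.77 and 4.23 RPKM in polysomes and 6.89, 8.24, 9.02, 9.87 and 10.7 RPKM in total RNA. The 2 fractions moved apart, with slopes of -0.23 ± 0.05 and 0.14 ± 0.02 (adjusted p = 0.00777 and 0.0191), which gave an occupancy slope of -0.37 ± 0.06 (adjusted p = 0.00271). SDC3, SDC4 and GPC1 also fell, with slopes of -0.29, -0.24 and -0.25. SDC2 and GPC4 had slopes of -0.04 each and no call (adjusted p = 0.518 and 0.5).

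Receptor phosphatases, kinases and ephrins had 8 falls and no rise among 12 members. PTPRF (LAR), a receptor phosphatase of cell contacts, had 22.1, 16.4, 17.1, 10.1 and 6.91 RPKM in polysomes from X0 to X4, while total RNA lay between 27.1 and 31 RPKM. The drop was in polysomes, most of it after X2, and the occupancy slope was -0.36 ± 0.06 (adjusted p = 0.00271). EPHA2, an ephrin receptor, had 25.3, 16.6, 17.3, 10.7 and 6.96 RPKM in polysomes, and 34.5, 30.7, 30.2, 30.7 and 22.6 RPKM in total RNA. Its polysome slope of -0.42 ± 0.06 (adjusted p = 0.00332) was the steepest of the members, and its total RNA slope was -0.12 (adjusted p = 0.0793). PTPRS, ERBB2, FGFR1, EPHB2, EPHB4 and the ligand EFNB1 also fell, with occupancy slopes of -0.33 to -0.21. PTPRK, EFNB2, EGFR and MET, the receptor of hepatocyte growth factor, were not called, with slopes of -0.05, -0.12, -0.04 and 0.13. The calls of MET and EFNB1 depend on scaling: after centring and in the count test MET, with an adjusted p of 0.0583 here, was called higher and EFNB1 was not called.

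Of 7 Notch, Jagged and Frizzled members, 6 fell in occupancy. NOTCH1 and NOTCH2, receptors of Delta and Jagged ligands, had slopes of -0.32 and -0.17, and the Wnt receptors FZD1, FZD2 and FZD7 had -0.31, -0.28 and -0.25. NOTCH2 was not called after centring or in the count test. NOTCH3 had 1.19, 1.39, 1.6, 1.45 and 1.65 RPKM in polysomes and 1.54, 2.77, 3.09, 4.69 and 6.01 RPKM in total RNA. Its total RNA was higher at each step, with a slope of 0.40 ± 0.03 (adjusted p = 0.00197), the steepest total RNA slope of the members. Its polysome slope of 0.07 was not called (adjusted p = 0.236), though the count test and quantile scaling did call it higher, and its occupancy slope was -0.33 ± 0.06 (adjusted p = 0.00271). JAG1, a Notch ligand, had an occupancy slope of -0.07 (adjusted p = 0.255).

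LRP receptors, relatives of the low-density lipoprotein receptor, had 3 falls among 5. LRP1, a large endocytic receptor for many ligands, had 0.392, 0.407, 0.451, 0.388 and 0.371 RPKM in polysomes and 1.26, 1.8, 1.98, 2.81 and 4.14 RPKM in total RNA. The polysome level lay between 0.371 and 0.451 RPKM while total RNA was higher at each step, with a total RNA slope of 0.33 ± 0.03 (adjusted p = 0.00397) and an occupancy slope of -0.34 ± 0.06 (adjusted p = 0.00271). LRP5, a Wnt co-receptor, had the other pattern: 20.9, 13.8, 14.5, 8.76 and 6.02 RPKM in polysomes, and 21.8 to 29.3 RPKM in total RNA. Its occupancy slope was -0.35 ± 0.06 and its polysome slope -0.41 ± 0.06 (adjusted p = 0.00271 and 0.00332). LRP4 fell (-0.22), while LRP6, also a Wnt co-receptor, had a slope of 0.07 and LRP8 one of -0.10, neither called. The difference between LRP5 and LRP6 was not tested.

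Integrins were divided. ITGB1, the beta 1 chain shared by many integrin pairs, had 66.1, 67.3, 75.3, 88.3 and 99 RPKM in polysomes and 58.3, 49.8, 51, 48.7 and 54 RPKM in total RNA. Its polysome level was higher at each step, with an occupancy slope of 0.18 ± 0.05 (adjusted p = 0.011). ITGB5, a beta chain that pairs with alpha V, had 7.31, 4.42, 4.56, 3.01 and 2.14 RPKM in polysomes, and 6.49 to 7.58 RPKM in total RNA. Its occupancy slope was -0.33 ± 0.06 (adjusted p = 0.00271), and ITGA5, the fibronectin receptor's alpha chain, had the same slope (adjusted p = 0.0031). ITGAV had 4.25, 6.09, 5.15, 5.96 and 9.08 RPKM in polysomes and 8.79, 9.52, 11, 10.7 and 12.9 RPKM in total RNA. Both fractions rose (slopes 0.20 and 0.12, adjusted p = 0.0245 and 0.0354) and the occupancy slope of 0.08 was not called. ITGA6 had a slope of -0.01.

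Of 7 plexins, neuropilins and CELSR2, 5 fell and none rose. PLXNA1, a semaphorin receptor, had 11.6, 9.26, 9.37, 5.7 and 4.17 RPKM in polysomes, and 13.9 to 18.3 RPKM in total RNA, and its occupancy slope was -0.32 ± 0.06 (adjusted p = 0.00274). PLXNB2, CELSR2, NRP2 and PLXNA2 fell with slopes of -0.33, -0.30, -0.21 and -0.19 (PLXNA2 not after centring), and PLXNB1 was not called (-0.14). NRP1, a co-receptor for semaphorins and VEGF, had 2.43, 2.35, 1.9, 1.58 and 1.28 RPKM in polysomes and 5.45, 4.29, 4.19, 3.54 and 3.29 RPKM in total RNA. Both fractions fell (slopes -0.19 and -0.15, adjusted p = 0.0125 and 0.0258), and its occupancy slope was -0.04. The polysome fall was not called after centring.

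The 9 tetraspanins and other members had 5 falls and 1 rise. CD81, a tetraspanin that organises receptors in the membrane, had 48.4, 33.9, 37.8, 26.2 and 21.4 RPKM in polysomes against 38.8 to 45.1 RPKM in total RNA, and its slope was -0.29 ± 0.06 (adjusted p = 0.00334). CD151, CD63, APP and APLP2 also fell, with slopes of -0.23, -0.15, -0.17 and -0.26. CD63 and APP were not called after centring or in the count test. TFRC, the transferrin receptor that brings iron into the cell, had 30.2, 39.2, 34.1, 42.5 and 54.9 RPKM in polysomes and 35.8 to 40.4 RPKM in total RNA. X3 and X4 were its highest polysome libraries, with an occupancy slope of 0.18 ± 0.06 (adjusted p = 0.0246). CD44, the hyaluronan receptor, had 6.43, 4.12, 3.82, 3.24 and 2.61 RPKM in polysomes and 8.55, 5.4, 4.76, 4.26 and 4.06 RPKM in total RNA, lower at each step in both. Its slopes were -0.26 and -0.23 (adjusted p = 0.00519 and 0.0258), and its occupancy slope of -0.03 was not called. CDH2 and ALCAM had slopes of -0.08 and 0.11.

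**Figure D2:**
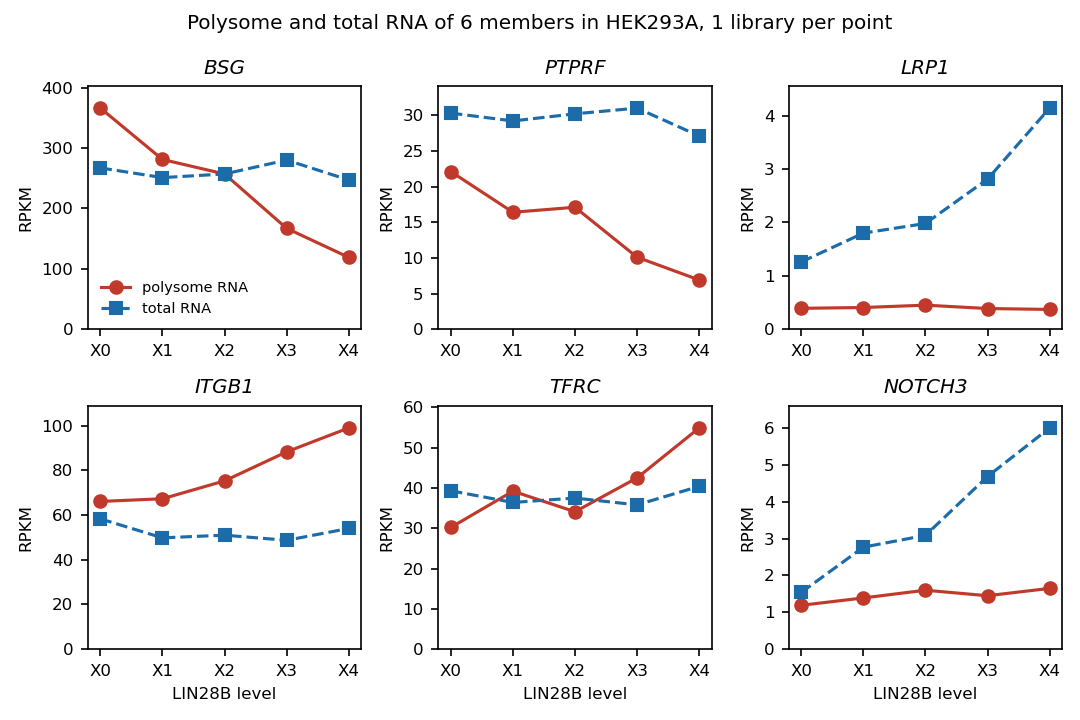
RPKM of polysome RNA (circles, solid) and total RNA (squares, dashed) of 6 members against LIN28B level in HEK293A, 1 library per point, each panel with its own axis from 0. BSG and PTPRF lose polysome RNA while total RNA stays level, ITGB1 and TFRC gain polysome RNA, and in LRP1 and NOTCH3 total RNA climbs while polysome RNA stays low.

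A fall in occupancy can come from less polysome RNA, from more total RNA, or both, and the occupancy slope is exactly the polysome slope minus the total RNA slope. On its own, polysome RNA fell in 33 of 52 members and rose in 3 (38.6% and 20.2% of all genes), and total RNA rose in 4 (7.69%, against 1.66%) and fell in 3 (5.77%, against 0.899%). After centring, polysome RNA fell in 26 members and rose in 5 (27.8% and 27.9% of all genes), and the count test gave 30 and 6 (28.6% and 28.7%). The falls lost by centring were APP, CD63, EPHB2, JAG1, NRP1, PLXNB1 and SDC4, and the count test lost APP, CD63 and SDC4. The risen total RNAs were NOTCH3, LRP1, SDC1 and ITGAV, and the fallen ones CD44, NRP1 and LRP8, a reelin receptor with 8.11, 6.7, 6.47, 5.58 and 5.42 RPKM of total RNA and a slope of -0.13 (adjusted p = 0.0298). Centring left the 7 total RNA calls the same (1.03% of all genes risen and 0.602% fallen), and the count test added NRP2 to the rises (1.47% and 0.89%).

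Of the 34 members that fell in occupancy, 27 were called lower in polysome RNA with no call in total RNA. SDC1 was called in both, LRP1 and NOTCH3 were called in total RNA only, and EFNB1, GPC1, NOTCH2 and NRP2 were called in neither. The polysome slope made up over 90% of the fall in 17 members, 50% to 90% in 14 and under 50% in 3. Those 3 were LRP1 (2.86%), NOTCH3 (-22.8%, since its polysome slope was above 0) and NRP2 (47.8%). The median share was 89.7% from polysome RNA and 10.3% from total RNA, and 20 of the 34 had a total RNA slope above 0. Over all genes total RNA was seldom called (1.66% risen and 0.899% fallen), while 38.6% fell in polysome RNA. The split was not made for other genes, so it is not shown to be particular to the members. A further 5 members, CD44, JAG1, LRP8, NRP1 and PLXNB1, fell in polysome RNA without an occupancy call, and 3 of them, CD44, LRP8 and NRP1, fell in total RNA too.

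**Figure D3:**
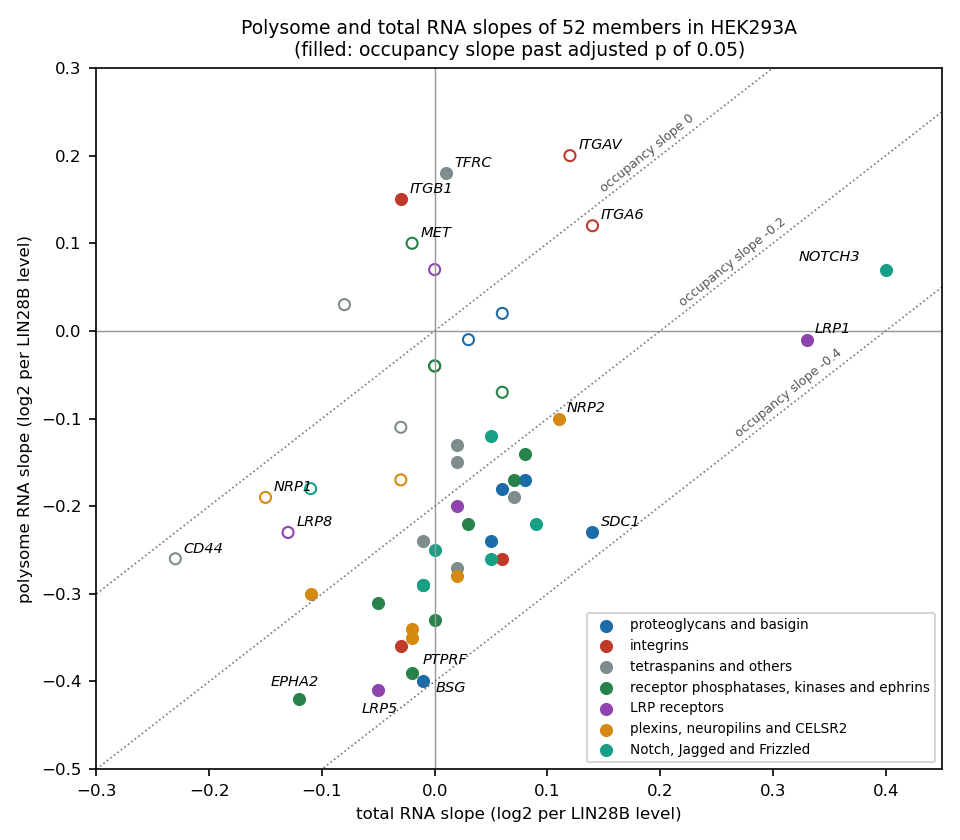
Polysome RNA slope (vertical) against total RNA slope (horizontal), both in log2 per LIN28B level, for the 52 members tested in HEK293A, coloured by role; filled points passed an adjusted p of 0.05 for occupancy and dotted lines join equal occupancy slopes. Most filled points lie below 0 on the vertical axis near a total RNA slope of 0, with LRP1 and NOTCH3 far to the right at total RNA slopes of 0.33 and 0.40.

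These counts rest on the ends of the series. Without X4, limma called no member in occupancy (0% of all genes). At an unadjusted p under 0.05, 29 members were then lower and 1 higher (27.9% and 12.4% of all genes). Without X0 limma called 18, all lower (16.1% of all genes lower and 2.37% higher). The rises of ITGB1 and TFRC were lost in both cases, and that of TFRC without X3 as well. Polysome RNA had no call without X0 or without X4. At an unadjusted p under 0.05 it had 23 lower and 1 higher without X0 (29.4% and 11% of all genes), and 26 and 0 without X4 (25.7% and 11%). Total RNA had no call without X0, with 4 lower and 10 higher at that p (5.97% and 6.44%). Without X0, the total RNA slopes of LRP1 and NOTCH3 were 0.35 each, CD44's was -0.13, and none of them was called. The total RNA falls of CD44, NRP1 and LRP8 were also lost without X3, and the rise of ITGAV without X1 or X4. Setting X0 alone against X1 to X4 called no member in occupancy (0.00899% of all genes in either direction), in polysome RNA (0%) or in total RNA (0.027% risen and 0.018% fallen). That contrast has a single library per fraction at X0. Its median log2 difference was -0.58 over members and -0.18 over all genes in occupancy, -0.48 and -0.17 in polysome RNA, and 0.01 for both in total RNA.

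Genes of related roles outside the 55, in 3 lists, were measured the same way. Among 38 other surface receptors and adhesion molecules, 22 fell in occupancy and 3 rose, and the falls of smallest p were PVRL2 (nectin 2, slope -0.38) and MCAM (-0.33). Among 39 intracellular partners such as talins, catenins and adaptors, with the nuclear proteins RBPJ and MAML1 included, 24 fell and 4 rose. The falls of smallest p there were MSN (moesin, -0.35) and PXN (paxillin, -0.31). The sheddase list of 16 genes holds sheddases, gamma-secretase parts and related genes such as FURIN, a protease that matures many surface proteins. In it 10 fell and 3 rose, led by FURIN (-0.35) and NCSTN (nicastrin, -0.31). All 6 had an adjusted p of 0.00284 or lower. The share fallen was 57.9%, 61.5% and 62.5% in these lists, 65.4% in the members and 38.9% in all genes. The share risen was 7.89%, 10.3% and 18.8%, with 3.85% in the members and 19.1% in all genes. After centring, 16 other surface genes fell and 7 rose, and 20 intracellular partners fell and 6 rose. In the sheddase list 6 genes fell and 4 rose. The share fallen was then 42.1%, 51.3% and 37.5%, with 55.8% in the members and 27.7% in all genes. The share risen was then 18.4%, 15.4% and 25%, with 7.69% in the members and 28.3% in all genes.

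Gene models of members were longer than those of all genes, with a median of 7144 against 4759 bases. Promoter GC content over the same 250 bases had a median of 69.4% in members with a promoter and 64.9% in all tested genes. Among all genes it was 67.4% in those that fell and 61.9% in those that rose, while members that fell had 70.4% and members not called 68.4%. The part of length and base composition in the occupancy slopes was not tested.

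In NIH3T3 limma called no member in any of the 3 trends, and neither did the count test, with 0% of all 10952 genes called by limma. After centring no member was called either, and 0.0183% of genes rose in polysome RNA. At an unadjusted p under 0.05, occupancy had 2 rises and 3 falls among 42 members, polysome RNA 6 and 2, and total RNA 17 and 1. Over all genes these were 2.55% and 2.69%, 5.97% and 3.3%, and 6.85% and 3.53%. In the count test they were 3 and 3, 7 and 3, and 13 and 3 among members (5.1% and 1.66%, 4.28% and 4.73%, and 5.56% and 6.41% of all genes). Without X4, occupancy had 7 rises and 10 falls (17.6% and 7.96% of all genes) and total RNA 6 and 0 (4.07% and 3.82%) in limma at that p. The median occupancy slope was -0.05 over members and -0.01 over all genes. The total RNA slope was above 0 in 34 of 42 members (median 0.08, all genes -0.00), and in 19 (45.2%, against 13.2% of all genes) X3 and X4 were both above X0, X1 and X2 in total RNA. For occupancy, 10 members (23.8%, against 13.4%) had X3 and X4 below the others.

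Mouse Lrp1 had 17.1, 12.2, 12, 11.4 and 9.24 RPKM in polysomes and 15.3, 15.9, 15.4, 18.7 and 17.2 RPKM in total RNA, and the lowest occupancy slope of the members, -0.24 ± 0.07 (adjusted p = 0.643). Its polysome values were lower at each step, while those of LRP1 in HEK293A lay between 0.371 and 0.451 RPKM. Sdc3 had 6.54, 3.45, 2.93, 2.91 and 1.98 RPKM in polysomes and 3.44, 2.1, 1.92, 2.37 and 1.56 RPKM in total RNA, with X0 highest in both (occupancy slope -0.15, adjusted p = 0.643). Aplp2, an APP relative, had 17.5, 27.8, 33, 39.9 and 41.1 RPKM in polysomes (polysome slope 0.29, adjusted p = 0.328), higher at each step. Itga5 had 25.2, 41.8, 45, 53.5 and 62.1 RPKM in total RNA and 33.4, 40.8, 41.3, 48.6 and 59.9 RPKM in polysomes. It was higher at each step in both fractions (total RNA slope 0.29, adjusted p = 0.351). Plxnb2 had 30.2, 35.7, 37.1, 44.8 and 58 RPKM in total RNA, again higher at each step (slope 0.22, adjusted p = 0.351).

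The NIH3T3 X0 libraries stood apart for many members. Setting X1 to X4 together against X0, total RNA of 9 members was higher and of 4 lower (11.3% and 11.7% of all genes). Fzd1 had 15.9, 12.8, 14.2 and 13 RPKM at X1 to X4, against 5.85 RPKM at X0 (log2 difference 1.18 ± 0.15, limma adjusted p = 0.00612). Sdc1 had 34.5, 34.2, 36 and 41.9 RPKM, against 17 RPKM at X0 (1.08 ± 0.14, adjusted p = 0.00632), and Itgb5 had 154, 171, 174 and 164 RPKM, against 81.5 RPKM at X0 (1.02 ± 0.11, adjusted p = 0.00383). These 3 members stepped up between X0 and X1 and then changed little. The other rises were Itga5, Ephb2, Cd63, Ephb4, Erbb2 and Fgfr1, and the falls were Met (-1.12), Efnb2 (-1.04), Nrp2 (-0.92) and Cd44 (-0.74). Polysome RNA of Fzd1, Cd63 and Itgb5 was higher (3 members, against 2.56% of all genes) and of no member lower (2.23%). Occupancy had no call, and its median log2 difference was -0.18 over members and -0.04 over all genes. X0 has 1 library per fraction, so these differences and that library cannot be told apart. Without X0, total RNA of Itga5 was called higher and of Sdc4 lower over the remaining levels (slopes 0.19 and -0.19, adjusted p = 0.0488 each), as were 0.639% and 0.593% of all genes.

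Occupancy slopes were lower in HEK293A than in NIH3T3 for 40 of the 41 members tested in both (97.6%), against 70.9% of 7257 shared symbols. The test of the difference called none of the 41 members, or of the 7257 symbols (0%), after adjustment, with 21 members lower and 0 higher at an unadjusted p under 0.05 (30.1% and 5.4% of all symbols). Without X2, 9 members were called lower in HEK293A (12% of all symbols lower, 0.841% higher), and at a mean of at least 5 RPKM 10 of 24 were (21.1% and 3.12% of 4139 symbols). The median difference, HEK293A minus NIH3T3, was -0.19 over members and -0.12 over all symbols. BSG had slopes of -0.39 in HEK293A and -0.03 in NIH3T3, a difference of -0.37 ± 0.08, and APLP2 had -0.26 and 0.09, a difference of -0.35 ± 0.08, each with an adjusted p of 0.053. LRP1, with -0.34 and -0.24, had a difference of -0.11 ± 0.08 (adjusted p = 0.317). Across the 41 genes the slopes of the lines had Pearson's r = 0.81 and Spearman's rho = 0.73, and across all 7257 they had 0.53 and 0.54. Genes are not independent replicates, the pairs share gene length and base composition, and these values are a description. Both slopes were below 0 in 27 members, both above 0 in 4, and 10 were below 0 in HEK293A and above 0 in NIH3T3. Over the 7257 symbols these counts were 3281, 1795 and 1315. A further 866 symbols, and 0 members, were above 0 in HEK293A and below 0 in NIH3T3.

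**Figure D4:**
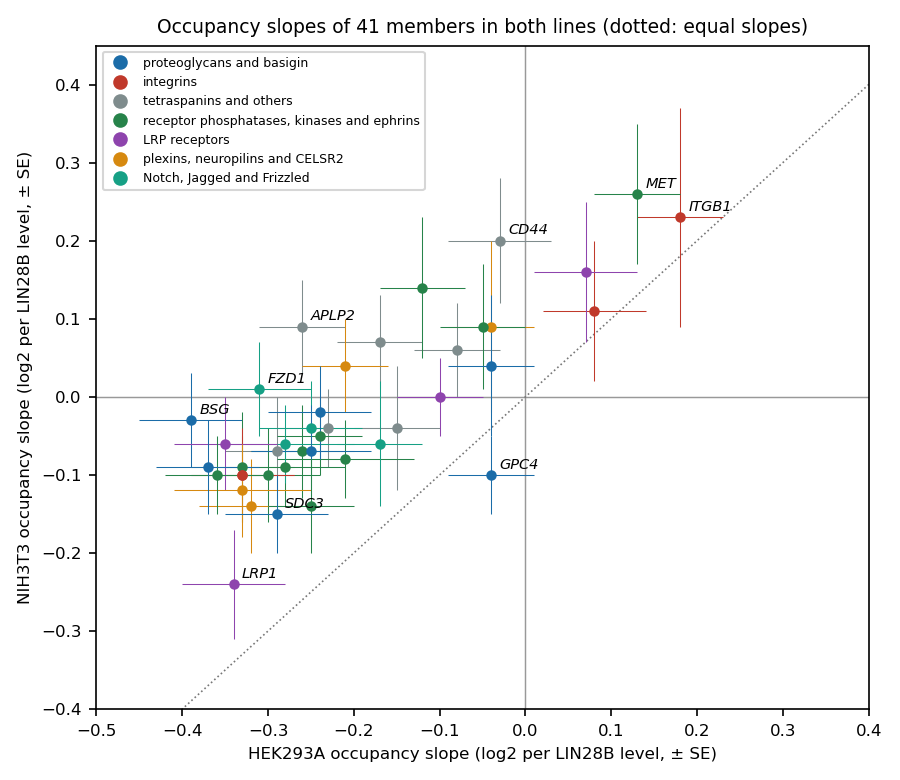
Occupancy slope in HEK293A (horizontal) against NIH3T3 (vertical), both in log2 per LIN28B level, for 41 members; points are genes coloured by role, bars are standard errors from limma, and the dotted line marks equal slopes. All points but GPC4 lie above the line, with BSG and APLP2 far from it and ITGB1 near it.

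Transfected let-7a, the microRNA whose maturation LIN28B blocks, was compared with untransfected X0 cells, with 1 library per group and fraction and therefore no test. Its sequence, from RefSeq, is given with the seed (bases 2 to 8), the part that pairs with targets, in capitals.
hsa-let-7a-5p: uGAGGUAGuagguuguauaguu
The let-7a pair was deposited apart from the untransfected X0 libraries, and no library is labelled as mock-transfected. Differences due to let-7a, to transfection itself and to the single libraries cannot be told apart. The small RNA libraries give only a weak check of the transfection. The let-7a genes had 5 of 140139 counts in AGO2-bound and 4 of 73083 in total small RNA of transfected knockout cells. Without transfection they had 0 of 157595 and 0 of 125904, with 95% exact binomial intervals reaching 0.00234% and 0.00293%. The transfected shares were 0.00357% (95% exact binomial interval 0.00116% to 0.00833%) and 0.00547% (0.00149% to 0.014%), so the intervals with and without transfection overlap. In X3 cells the let-7a genes had 3 of 95887 AGO2-bound and 1 of 86951 total counts after transfection. Untransfected X3 cells had 0 of 172995 and 0 of 150841.
Total RNA of 7 of 53 members was over 1.5-fold higher and of 5 over 1.5-fold lower after let-7a (9.58% and 8.39% of all 11342 genes). In polysomes 16 were higher and 7 lower (26.5% and 15.3%), and in occupancy EFNB2, LRP8 and NOTCH2 were higher and EFNB1 and FZD2 lower (18.3% and 6.57%). The median of all genes was shifted by 0.14 in polysomes and 0.15 in occupancy (log2). Relative to that shift, polysome RNA of 11 members was higher and of 8 lower (20.9% and 20.3%), and occupancy of LRP8 was higher and of EFNB1, FZD2 and SDC2 lower (10.8% and 11.6%).

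LRP1 had 3.87 RPKM of total RNA after let-7a and 1.26 RPKM without, a ratio of 3.07 with a 95% interval for counting error of 2.86 to 3.3 (Clopper-Pearson). In polysomes it had 1.81 and 0.392 RPKM (ratio 4.61, 3.66 to 5.85), so both fractions were higher after let-7a. PLXNB1 had 4.73 RPKM after let-7a and 1.75 RPKM without (ratio 2.7), NOTCH3 3.78 and 1.54 RPKM (2.45), and SDC1 14.3 and 6.89 RPKM (2.08). SDC4, PTPRS and CD44 were the other members counted as over 1.5-fold higher in total RNA, at plain ratios of 1.9, 1.71 and 1.63. GPC6 and ITGA5 had plain ratios of 1.55 and 1.51 but were under 1.5-fold after adding 0.5 RPKM. FZD7 had 4.21 RPKM after let-7a and 9.58 RPKM without (ratio 0.439), SDC2 10.7 and 22.2 RPKM (0.482), and NRP2 0.834 and 1.66 RPKM (0.501). ALCAM and GPC4 were also lower (0.633 and 0.651); GPC4 was under 1.5-fold relative to the shift of all genes. LRP8 had 9.71 RPKM in polysomes after let-7a and 3.31 RPKM without, with 11.7 and 8.11 RPKM in total RNA, the largest occupancy difference of the members (0.92).

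The let-7a pair and the LIN28B series share the X0 libraries. LRP1, NOTCH3 and SDC1 had 3.87, 3.78 and 14.3 RPKM of total RNA after let-7a, 4.14, 6.01 and 10.7 RPKM at X4, and 1.26, 1.54 and 6.89 RPKM at the shared X0. The other members called in total RNA, CD44, ITGAV, NRP1 and LRP8, moved in opposite directions after let-7a and along the LIN28B series. CD44 had 13.9 RPKM after let-7a, 4.06 RPKM at X4 and 8.55 RPKM at X0. ITGAV, NRP1 and LRP8 had 6.76, 6.25 and 11.7 RPKM after let-7a and 8.79, 5.45 and 8.11 RPKM at X0. Their total RNA slopes over LIN28B levels were 0.12, -0.15 and -0.13. ITGA3 and ITGB4, absent from the human series table, had 1.67 and 0.108 RPKM of total RNA after let-7a, with no untransfected value used here.

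**Figure D5:**
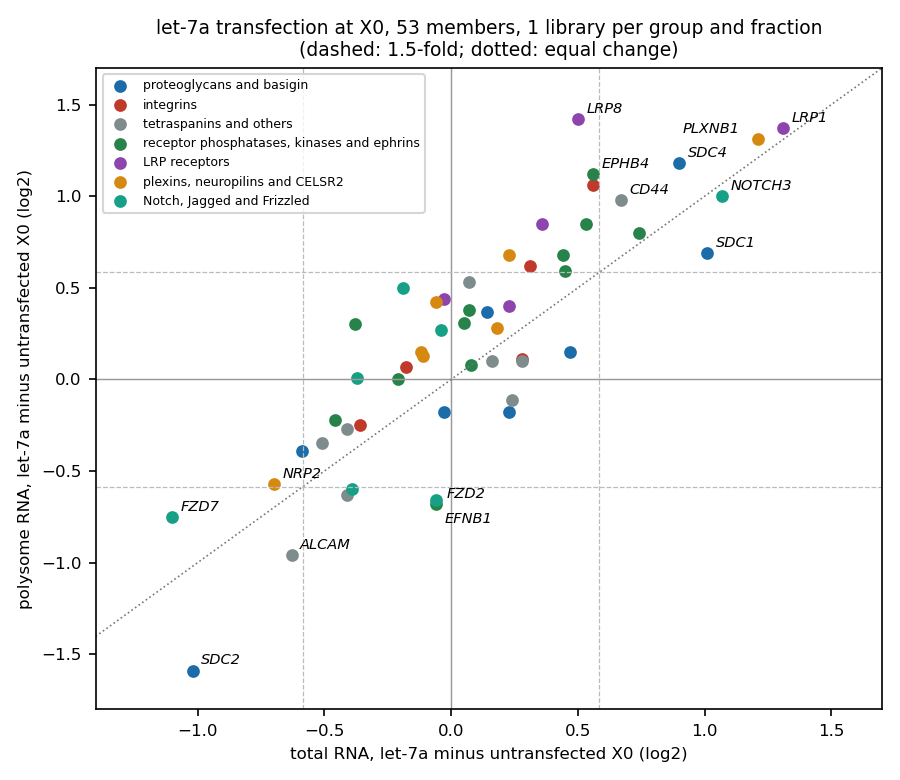
Log2 difference, let-7a minus untransfected X0, in polysome RNA (vertical) against total RNA (horizontal) for 53 members, 1 library per group and fraction; dashed lines mark 1.5-fold and the dotted line equal change. LRP1, PLXNB1, NOTCH3 and SDC1 lie at the upper right and SDC2, FZD7 and ALCAM at the lower left.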

How the data were processed

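RPKM values for 22 polysome and total RNA libraries were deposited by the authors in 3 tables, 1 column per library. Small RNA counts for 8 further libraries were deposited and used only to check let-7a. Per the submitters' processing notes, cutadapt, STAR, hg19 and mm10 were used; the sources used here do not give the counting tool or its strand setting. Values were put on a log2(RPKM + 0.5) scale, which understates changes of low genes. Straight lines over the level rank (0 to 4) were fitted with limma 3.58.1 (R 4.3.3; variance trend, robust) to genes averaging 1 RPKM or higher over a line's 10 libraries, with Benjamini-Hochberg adjustment over all of them. Lines were compared by a line-by-rank term over shared symbols. Whole reads were recovered from RPKM steps within 0.02 of a whole number (100% of 11342 human genes; 90.72% of 21042 mouse genes above 0) and used for depth, counting intervals and the edgeR 4.0.16 count test. Intervals cover counting error only. The methods were tested on simulated data, where limma's share of false calls was above the level aimed at. Named members were those of smallest p per trend, direction and role. The members and lists were chosen with earlier results of these data known. Alternatives were other pseudocounts, filters, scalings, level contrasts and leaving out each level.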

Additional observations from a re-analysis of the deposited data

How the results depend on the processing

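Of 34 falls and 2 rises (36 members) called in HEK293A occupancy, leaving out a level gave 0 to 39 calls, and X0 against X1 to X4 gave none. Polysome RNA, with 36 calls, gave 0 to 41 when a level was left out and none for X0 against the rest. Total RNA, with 7 calls, gave 2 at a mean of at least 5 RPKM. There 37 of 52 members are tested, and SDC1 and ITGAV are the only called genes left to test. Total RNA gave 0 to 10 when a level was left out and none for X0 against the rest. X3 and X4 against X0 to X2 gave 0, with 11 higher and 4 lower at an unadjusted limma p under 0.05 (4.76% and 4.73% of all genes). In NIH3T3, X0 against the rest called 3 members in polysome RNA and 13 in total RNA, and leaving out a level gave 0 to 2 in total RNA. For the difference between lines, with no call in the fit reported, quantile scaling called 2 lower (0.992% of all symbols), no filter 3 (2.8%), a pseudocount of 1 RPKM 4 (7.23%), a mean of at least 5 RPKM 10 of 24, and leaving out a level 0 to 9, the 9 without X2; BSG and APLP2 were among those called each time. The causes were not tested. The 30 named slopes were chosen by smallest p, so they cannot stand for members nearer the threshold, some of whose calls changed with scaling. Of these 30 slopes 0 changed sign, and centring, quantile scaling, the count test and both other pseudocounts kept each on its side of the threshold. Only 24 of them, all in HEK293A, were called in the fit reported, and the NIH3T3 slopes had no call to lose. Without X0, X1, X3 or X4, 17, 1, 4 and 18 of the called slopes were no longer called. None of them stayed called for X0 against the rest, and 11 were lost for X3 and X4 against the others. No paired analysis was possible because no level has a second library per fraction with a replicate number of its own; occupancy already sets the polysome library against the total RNA library of its level. Polysome depth limits members under 100 reads in a library (8 in HEK293A).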
